A study of Mus musculus with 6 samples.

Results

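The prostaglandin genes followed here are *Pla2g4a*, *Ptgs1*, *Ptgs2*, *Ptges*, *Ptges2*, *Ptges3*, *Ptgis*, *Ptgds*, *Ptger4* and *Hpgd*. They were found by name in the array annotation, where 16 probes printed as 25 spots stand for these 10 genes, out of 22232 named genes, 55681 probes and 59305 spots in all (control spots not counted). RNA came from 1G11 cells, a mouse microvascular endothelial line recorded as C57BL/6NCrLBR, in a mock-transfected version (1G11-mock) and a version overexpressing SOD3, the extracellular superoxide dismutase (1G11-SOD3). Both lines had spent 6 h in medium conditioned by the mouse mammary cancer line N202.1A, so that every array carries that exposure and no array shows cells without it. Each line gave 3 single-color Agilent arrays, which the study describes as independent experiments, and each version is 1 cell line, so that any difference between the lines other than SOD3 enters the comparison. The comparison asks which genes differ when endothelial cells in a tumor-like medium carry extra SOD3.

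Prostaglandins are lipid signals made on demand. The phospholipase encoded by *Pla2g4a* frees arachidonic acid from membranes, the cyclooxygenases encoded by *Ptgs1* (constitutive in most cells) and *Ptgs2* (induced by cytokines and growth factors) turn it into prostaglandin H2, and terminal synthases make the final product: prostaglandin E2 (*Ptges*, *Ptges2*, *Ptges3*), prostacyclin (*Ptgis*) or prostaglandin D2 (*Ptgds*). Prostaglandin E2 acts through receptors such as EP4, encoded by *Ptger4*, and is inactivated by the dehydrogenase encoded by *Hpgd*. Endothelium is best known as a source of prostacyclin, which widens vessels and restrains platelets.

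The probe stretches below are shown because the readings of *Ptgs2*, *Ptger4*, *Ptges* and *Ptgis* turn on which probe and which place on the array is read. Each is the last 30 bases of a probe of 60 bases, taken from the array annotation and written 5′ to 3′ in the sense of the transcript, and capitals mark a polyadenylation signal (AATAAA) where one is present. The annotation gives a position for each whole probe in a mouse genome build that the files do not state, so that exon and untranslated parts were not looked up. The *Ptgs2* probe lies at chr1:151954744-151954803 on the plus strand, the *Ptger4* probe at chr15:5184419-5184478 on the minus strand, the *Ptges* probes at chr2:30744995-30745054 (A_55_P1974193) and chr2:30748214-30748273 (A_55_P1974189) on the minus strand, and the *Ptgis* probes at chr2:167028696-167028755 (A_55_P2154027) and chr2:167017317-167017376 (A_55_P2074757) on the minus strand.
Ptgs2 A_51_P254855: ctgttggaatttacgcataaagcagactgc
Ptger4 A_51_P207988: cgagattgcagttgcaacttggcagctttt
Ptges A_55_P1974193: agtcagccccaattaaatgctttcctttat
Ptges A_55_P1974189: gttgtcctcacaggccgtgtggtacacacc
Ptgis A_55_P2154027: aagctAATAAAagctctgtatctcgctgtg
Ptgis A_55_P2074757: cattctggtcagtcctcctacatcaattaa

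Values are normalized log2 intensities, and a difference is always 1G11-SOD3 minus 1G11-mock. The scanner software marked 34.2% to 43.8% of the spots of an array as well above background, and none as saturated. A central block of 6606 spots, called the middle here, read dim on the 1G11-mock arrays, and 3 of the 25 spots (2 copies of the *Ptgs2* probe and the only copy of 1 *Ptgis* probe) lie in it. Spots there are therefore given apart, and 15 of the 16 probes have a reading outside the middle. All 6 arrays were on 1 slide, with the 1G11-mock arrays in one slide row and the 1G11-SOD3 arrays in the other, so that cell line and slide row cannot be told apart. *Sod3* itself has 1 spot, in the middle, which read 13.61, 12.66 and 9.86 in 1G11-mock and 16.37, 16.30 and 16.26 in 1G11-SOD3 (difference 4.27, adjusted p = 0.00742 by limma). After the position adjustment described further on, that difference was 2.69 (adjusted p = 0.0153). All 3 arrays labeled 1G11-SOD3 were above all 3 labeled 1G11-mock. The sources used here do not say whether this probe reads the introduced copy.

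Of the endothelial markers, *Kdr*, *Eng* and *Vwf* were well above background on all 6 arrays by at least 1 probe, while *Cdh5*, *Tek*, *Tie1*, *Emcn* and *Erg* were so on none, and *Pecam1* was so on 2 of 3 1G11-mock arrays and 1 of 3 from 1G11-SOD3. *Vwf*, which encodes von Willebrand factor, was the 1 of 10 endothelial marker genes outside the middle to be called, and it was lower in 1G11-SOD3 (-1.66, adjusted p = 0.00330 by limma). Summed over the 12 endothelial probe readings outside the middle, the 1G11-mock arrays had log2 levels of 14.3 to 14.9 and the 1G11-SOD3 arrays of 13.7 to 13.9. Over the 7 fibroblast or mural cell markers these levels were 14.4 to 15.1 and 15.3 to 17.4, and 4 of the 7 (*Acta2*, *Col1a1*, *Col1a2* and *Pdgfrb*) were called higher in 1G11-SOD3. The upper end of 17.4 comes from the third 1G11-SOD3 array, where *Dcn* read 17.05, against 13.51 and 13.59 on the other 1G11-SOD3 arrays and 14.04 to 14.78 in 1G11-mock. Over all readings outside the middle, 0.660% were called higher and 1.20% lower. Not called were *Dcn* (0.29), *Pdgfra* (0.27) and *Rgs5* (-0.54), the last well above background on no array. In 1G11-mock *Col1a2* was well above background on 0 of 3 arrays and *Pdgfrb* on 1 of 3. The *Col1a2* call was lost under 6 of 22 settings. Epithelial markers summed to 10.04 to 10.26 in 1G11-mock and 10.03 to 10.26 in the other line, and leukocyte markers to 14.3 to 14.8 and 14.6 to 14.7. Of the epithelial genes summed, 0 of 5 were well above background on all 6 arrays. Of the leukocyte genes 4 of 6 were so by at least 1 probe, while *Ptprc* and *Cd79a* were so on no array. Most of the leukocyte sum came from 1 *Itgam* probe at 13.91 to 14.44, while the other *Itgam* probes were well above background on no array. These sums leave out spots in the middle, among them that of *Krt14*, an epithelial keratin, which was called higher in 1G11-SOD3 (4.83, adjusted p = 6.9e-05 by limma). After the position adjustment the *Krt14* difference was 2.14 (adjusted p = 0.00123), and 2 of 3 1G11-mock arrays were well above background for it. The part of these shifts in the values that follow was not tested, and in bulk RNA fewer cells of a type and less RNA per cell cannot be told apart.

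Taken over all 10 genes, none was called in the reported fit, which does not pair the arrays by replicate number. The threshold is more than 2-fold with an adjusted p under 0.05 (limma, Benjamini-Hochberg over all 55961 readings). Called were 0 of 15 readings outside the middle, where 0.660% of all 49526 readings were called higher and 1.20% were called lower in 1G11-SOD3. In the middle it was 0 of 2 readings, against 12.0% called higher and 0.0622% called lower there. With the replicate number as a block, 1 of the 15 (*Ptgs2*) was called, lower in 1G11-SOD3. That paired fit called 1.60% of all readings outside the middle lower. In the reported fit 3 of the 15 (*Ptgs2*, *Ptger4* and *Ptges* A_55_P1974193) had an unadjusted p under 0.05, a level reached by 12.7% of all readings outside the middle. The fitted differences were above 0 in 8 and below 0 in 7, with a median of 0.04, the 3 readings that were well above background on no array included, and the median over all readings outside the middle was -0.06. With 3 arrays per line an exact permutation test cannot go below p = 0.1, so single genes rest on the limma fit across all readings. The plot of every reading by array shows this picture, with *Ptgs2* to the left and *Ptger4* to the right in 1G11-SOD3 and most other pairs of groups overlapping.

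**Figure D1:**
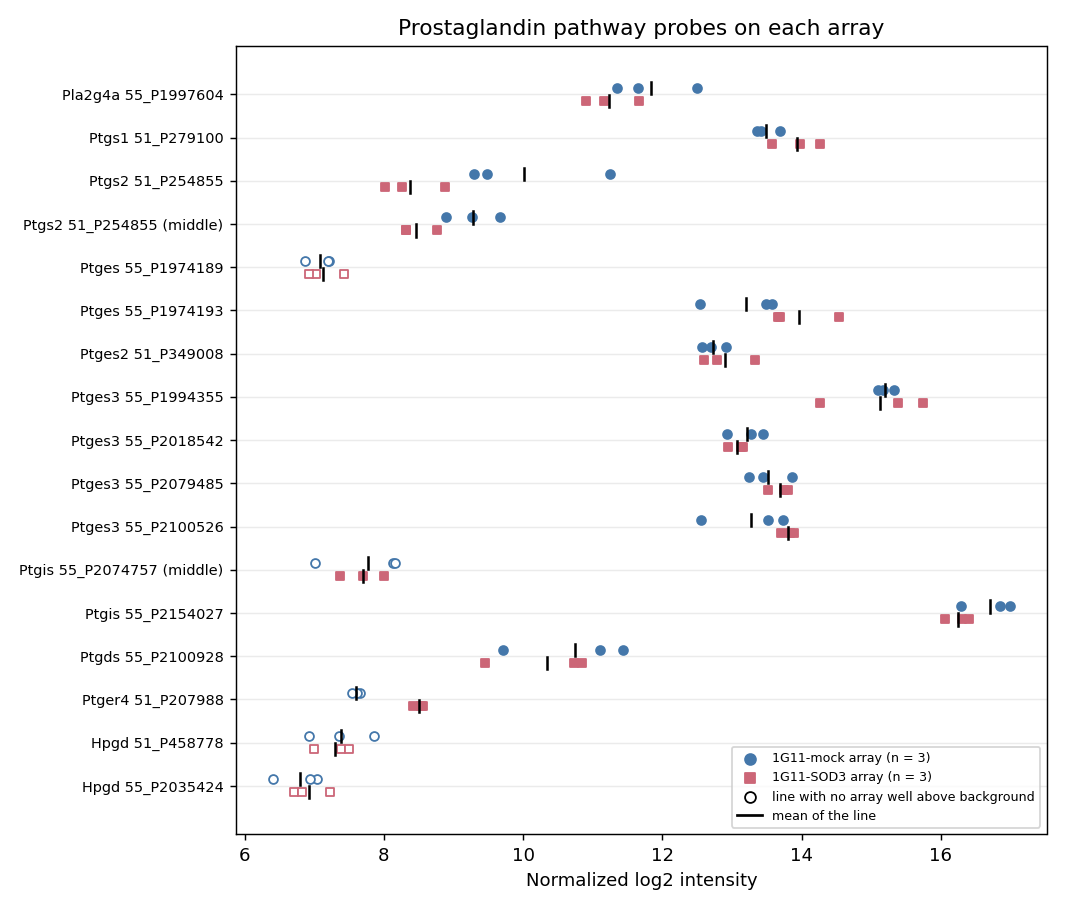
Normalized log2 intensity (horizontal) of each probe of the 10 genes on the 3 1G11-mock arrays (circles) and 3 1G11-SOD3 arrays (squares), with the mean of each line as a bar. Open symbols mark a line in which no array was well above background; outside the middle the *Ptgs2* squares lie at 8.01 to 8.88 and its circles at 9.29 to 11.25.

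*Pla2g4a*, the first enzyme of the pathway, read by probe A_55_P1997604, had values of 11.66, 11.35 and 12.49 in 1G11-mock and 11.16, 10.90 and 11.66 in 1G11-SOD3. The lines overlapped, with the highest 1G11-SOD3 array at the median of 1G11-mock, and the difference of -0.59 ± 0.32 (SE, n = 3 per line) did not pass the test (adjusted p = 0.441 by limma). Its 95% interval ran from -1.30 to 0.11. Taking arrays of the same replicate number together, 1G11-SOD3 was lower in each of the 3 pairs, with differences of -0.50, -0.45 and -0.83, and the adjusted p with the replicate number as a block was 0.211.

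*Ptgs1* (A_51_P279100), the cyclooxygenase that most cells keep on, read 13.69, 13.41 and 13.36 in 1G11-mock and 14.26, 13.57 and 13.97 in 1G11-SOD3. One 1G11-SOD3 array fell inside the 1G11-mock range and the other 2 lay above it. The difference was 0.45 ± 0.25 (SE), with a 95% interval from -0.09 to 0.99 and an adjusted p of 0.453 by limma, and it stayed at 0.44 after the position adjustment.

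*Ptgs2*, the inducible cyclooxygenase, had the largest fitted difference of the 10 genes in size. Its probe is printed 10 times on the array, 8 times outside the middle. The mean of those copies, spots marked as outliers by the scanner software left out, was 9.48, 9.29 and 11.25 in 1G11-mock and 8.01, 8.25 and 8.88 in 1G11-SOD3, and most copies were well above background on each of the 6 arrays. All 3 arrays of 1G11-SOD3 were lower than all 3 of 1G11-mock, as was true of 11.4% of all readings outside the middle, and the third 1G11-mock array stood well above the other two. The difference was -1.63 ± 0.45 (SE, n = 3 per line; 95% interval -2.62 to -0.64), which is 3.09-fold lower in 1G11-SOD3, with an adjusted p of 0.0880 by limma.

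Pairing the arrays by replicate number moved *Ptgs2* past the threshold. The 3 paired differences were -1.47, -1.04 and -2.37, and with the replicate number as a block the adjusted p was 0.00778, where 1.60% of all readings outside the middle were called lower in that fit. Without the third 1G11-mock array the difference was -1.01 (adjusted p = 0.134). Scaling each array to its 75th percentile in place of quantile normalization gave -1.69 (adjusted p = 0.00650), and the processed signal of the scanner software scaled the same way gave -2.11 (adjusted p = 0.0359). These scalings moved the median over all readings to -0.34 and -0.52, toward lower values in 1G11-SOD3. The plot of *Ptgs2* by processing shows that every setting tried gave a difference below -1, while the adjusted p ran from 0.00650 to 0.272.

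**Figure D2:**
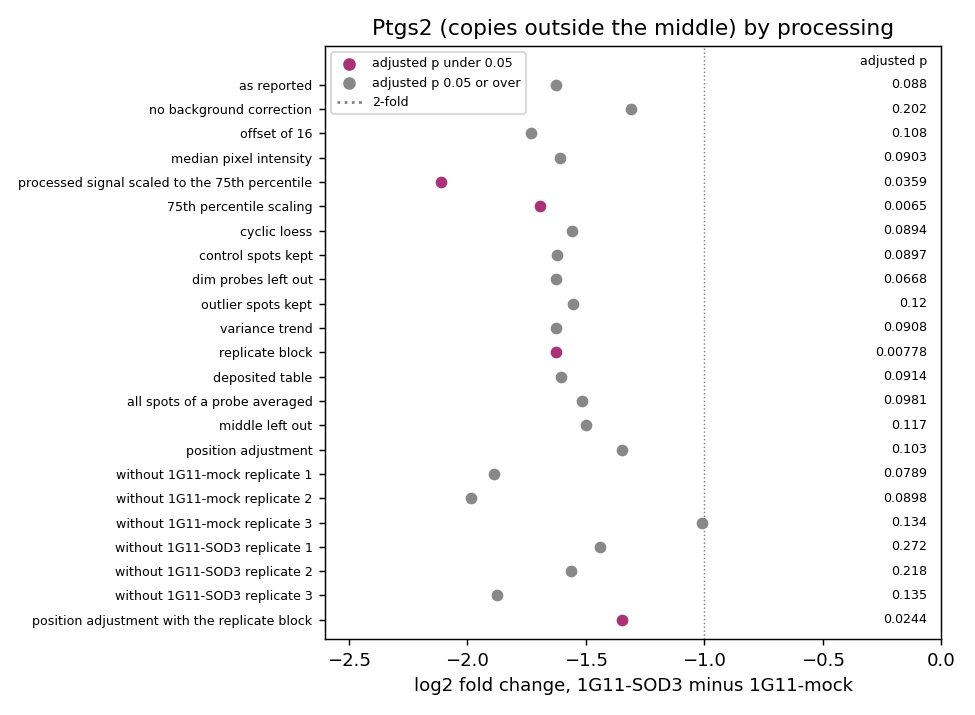
Log2 fold change of *Ptgs2* outside the middle (horizontal, 1G11-SOD3 minus 1G11-mock) under each processing setting (vertical), with the adjusted p at the right and a dotted line at 2-fold. Values ran from -2.11 to -1.01; only the colored points, which are the replicate block with and without the position adjustment and both 75th percentile scalings, had an adjusted p under 0.05.

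The 10 copies of the *Ptgs2* probe let the place on the array be read directly. Taken singly with no spot left out, copies outside the middle differed between the lines by -1.88 to -1.05, and the 2 copies in the middle by -0.57 and -0.68. On the third 1G11-mock array the copies outside the middle had a median of 11.26 and those in the middle 9.43, a gap of -1.84, while on the other 5 arrays the gap lay between -0.40 and 0.56. One copy outside the middle read 7.76 on the first 1G11-mock array, where the other 7 lay between 9.21 and 9.80; it was marked as an outlier, and its line difference of -1.05 was the one nearest to 0 of the 8. Averaged within the middle, again without marked spots, *Ptgs2* read 9.27, 8.89 and 9.66 in 1G11-mock and 8.32, 8.32 and 8.76 in 1G11-SOD3, again without overlap, with a difference of -0.81 ± 0.26 (SE; adjusted p = 0.153 by limma).

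**Figure D3:**
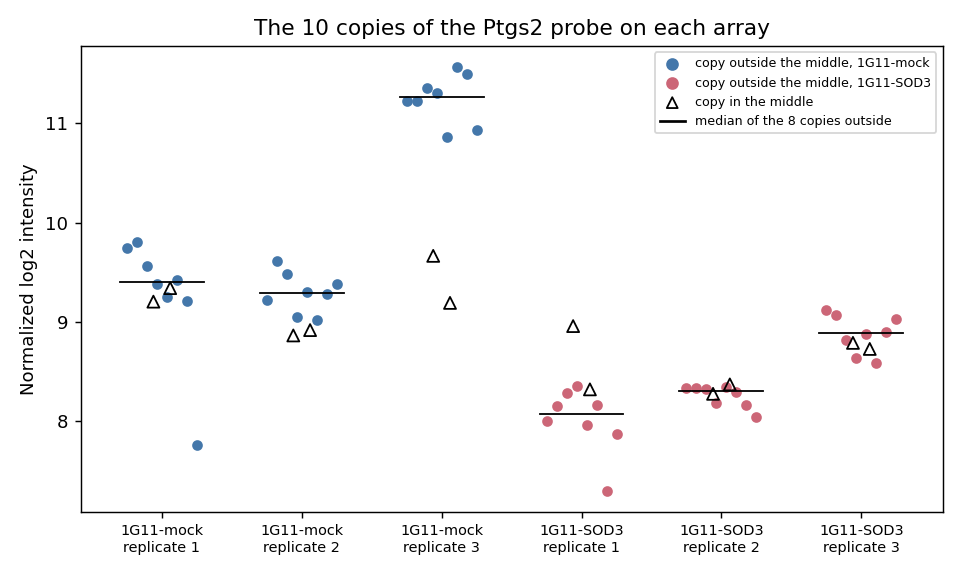
Normalized log2 intensity (vertical) of the 10 copies of the *Ptgs2* probe on each of the 6 arrays, with filled points for the 8 copies outside the middle, triangles for the 2 copies in it and a bar at the median of the 8. The copies in the middle lie 1.84 below that median on the third 1G11-mock array.

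To take the place on the array into account, a smooth surface over rows and columns was fitted on each array to the deviation of bright spots from the mean of all arrays and subtracted before quantile normalization. Probes printed 10 times were held out of the surface fit. Among the 192 of them with a mean above 9, the SD of the line difference between copies of the same probe went from 0.702 to 0.221. After this adjustment the *Ptgs2* difference was -1.35 (adjusted p = 0.103) outside the middle and -1.38 (adjusted p = 0.0756) in it, so the values from both places lay within 0.05 of each other. The adjustment together with the replicate block gave an adjusted p of 0.0244 outside the middle. The surface is fitted to bright spots, and adjusted values are given only for probes well above background, with *Krt14* so on 2 of 3 1G11-mock arrays.

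The promoters of *Ptgs2* and *Ptger4* are shown for context, since they are the genes of the 10 with the lowest p, a choice made after their values were seen. The plan was to show promoters of called members only, and neither gene was called in the reported fit. RefSeq promoter sequences (GRCm38.p6) were at hand for 9 of the 10 genes, as 10 promoters, none of them for *Ptgis*. Each window searched held 300 bases, 250 before the start of the gene and 50 from it on, and 280 are printed, 5′ to 3′ on the strand of the gene, from chr1:150099781-150100060 (plus strand) for *Ptgs2* and chr15:5244158-5244437 (minus strand) for *Ptger4*. Capitals mark TTGCGCAA (the C/EBP palindrome), GGGCGG (bound by Sp1) and CACGTG (an E-box) on either strand.
Ptgs2 promoter: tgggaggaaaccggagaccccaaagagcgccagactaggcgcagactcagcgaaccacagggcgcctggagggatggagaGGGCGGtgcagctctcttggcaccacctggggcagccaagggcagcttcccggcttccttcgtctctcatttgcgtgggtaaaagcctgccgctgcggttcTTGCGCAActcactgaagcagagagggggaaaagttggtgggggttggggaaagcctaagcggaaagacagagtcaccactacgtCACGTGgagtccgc
Ptger4 promoter: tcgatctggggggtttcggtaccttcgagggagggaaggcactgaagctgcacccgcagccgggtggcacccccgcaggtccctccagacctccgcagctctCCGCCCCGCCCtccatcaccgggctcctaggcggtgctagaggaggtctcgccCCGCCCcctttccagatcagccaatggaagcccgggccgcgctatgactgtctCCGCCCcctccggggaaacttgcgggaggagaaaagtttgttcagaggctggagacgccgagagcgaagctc

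Counting the start of the gene as position 0, the *Ptgs2* window held TTGCGCAA at -69, GGGCGG at -170 and CACGTG at 16, besides 1 loose pair of NF-κB half-sites (GGG and CC with 5 bases of any kind between them) at -23. TTGCGCAA is rare, being present in 0.183% of 32851 RefSeq promoters of the same length, and *Ptgs2* was the only one of the 9 genes to hold it. The *Ptger4* window held GGGCGG 4 times (at -148, -143, -95 and -42, the first 2 overlapping) and the loose NF-κB pair 3 times. Over the 10 promoters, 5 held GGGCGG (35.7% of all promoters), 6 held the loose NF-κB pair (50.8%), 2 held CACGTG (7.15%), 2 held TATAAA (13.6%) and 0 held TGACGTCA, the cAMP response element (1.79%). These matches describe letters in the windows only.

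Among the terminal synthases, *Ptges*, the inducible prostaglandin E synthase, is read by a pair of probes with unlike results. Probe A_55_P1974193 read 13.49, 13.58 and 12.54 in 1G11-mock and 13.70, 13.66 and 14.54 in 1G11-SOD3. All 1G11-SOD3 arrays lay above all 1G11-mock arrays, as in 8.24% of readings outside the middle, although 2 arrays of each line lay within about 0.2 of each other and the third pair was set apart by 1.999. The difference of 0.76 ± 0.33 (SE) did not pass the test (adjusted p = 0.325 by limma). Its spot lies in array row 257, bordering the middle, where the fitted surface differed between the lines by 0.93, and after the position adjustment the difference was -0.09 (adjusted p = 0.883). Probe A_55_P1974189 was not well above background on any array, with values from 6.86 to 7.42.

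*Ptges2* (A_51_P349008), a membrane-associated prostaglandin E synthase, read 12.57, 12.70 and 12.91 in 1G11-mock and 12.78, 13.33 and 12.59 in 1G11-SOD3, overlapping, with a difference of 0.18 (95% interval -0.38 to 0.73; adjusted p = 0.810 by limma). *Ptges3*, the cytosolic prostaglandin E synthase also known as the HSP90 cochaperone p23, has 4 probes, all well above background on all 6 arrays. Their differences were -0.14 (A_55_P2018542), -0.065 (A_55_P1994355), 0.17 (A_55_P2079485) and 0.54 (A_55_P2100526), and the lines overlapped in each. The 0.54 of A_55_P2100526 came with 1G11-mock values of 13.73, 13.52 and 12.56 and 1G11-SOD3 values of 13.83, 13.89 and 13.70, so that 1 low 1G11-mock array set the lines apart. After the position adjustment it was 0.17, and the 4 probes then lay between -0.08 and 0.17.

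*Ptgis*, the prostacyclin synthase, read 16.86, 16.29 and 16.99 in 1G11-mock and 16.30, 16.06 and 16.40 in 1G11-SOD3 by its probe outside the middle (A_55_P2154027). The lines overlapped through the second 1G11-mock array, and the difference of -0.46 ± 0.25 (SE; 95% interval -1.01 to 0.10) did not pass the test (adjusted p = 0.454 by limma). After the position adjustment it was 0.01. The *Ptgis* probe in the middle, A_55_P2074757, was well above background on 1 of 6 arrays and gives no fold.

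*Ptgds* (A_55_P2100928), the lipocalin-type prostaglandin D synthase, read 11.43, 11.10 and 9.72 in 1G11-mock and 10.73, 10.84 and 9.46 in 1G11-SOD3. The third array was the lowest in both lines, by more than the lines differed. The difference was -0.40 ± 0.46 (SE; adjusted p = 0.751 by limma), and in pairs of the same number it was -0.70, -0.26 and -0.26 (adjusted p = 0.421 with the replicate block).

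The plot of differences by probe sets these values side by side with those after the position adjustment. Probes that give no fold are left out of it. The intervals of *Ptgs2*, *Ptger4* and *Ptges* A_55_P1974193 leave out 0, and of the 11 readings outside the middle that were well above background on all 6 arrays the widest shifts with the adjustment were those of *Ptges* A_55_P1974193 and *Ptgis* A_55_P2154027.

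**Figure D4:**
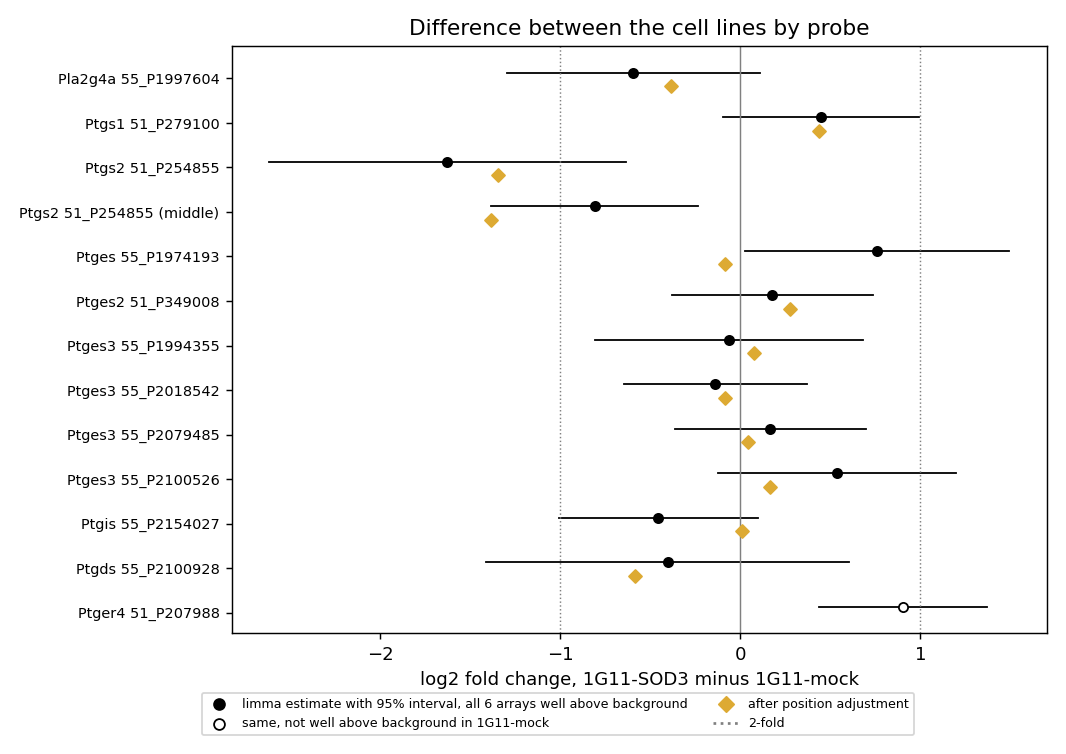
Log2 fold change (horizontal, 1G11-SOD3 minus 1G11-mock) of the probes of the 10 genes that give a fold, with the limma estimate and its 95% interval in black and, for probes well above background on all 6 arrays, the value after position adjustment as a diamond. Dotted lines mark 2-fold; *Ptges* A_55_P1974193 goes from 0.76 to -0.09.

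*Ptger4*, which encodes the EP4 receptor for prostaglandin E2, was the member with the tightest replicates. It read 7.65, 7.62 and 7.53 in 1G11-mock, where 0 of 3 arrays were well above background, and 8.42, 8.57 and 8.53 in 1G11-SOD3, where it was on 3 of 3. The lines did not overlap, and *Ptger4* was at least 1.34-fold higher in 1G11-SOD3. That bound is set against the lowest signal among readings well above background on each 1G11-mock array, and it was not tested. The adjusted p of 0.0432 by limma belongs to the fitted difference of the measured values. The measured means were 7.60 ± 0.06 and 8.51 ± 0.08 (SD, n = 3). *Ptger4* was not called, because the fitted difference of 0.90 that the 2-fold rule uses is below 1, but with 1G11-mock not well above background that value does not show the change to be under 2-fold. With the replicate block the adjusted p was 0.0468. It was over 0.05 when any 1 array was left out, from 0.0725 to 0.167, and over the settings with all arrays and no position adjustment it ran from 0.0261 to 0.244. Among these settings the adjusted p by limma was 0.0731 with the deposited values and 0.0742 with median pixel intensities.

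*Hpgd*, the dehydrogenase that inactivates prostaglandins, was not well above background on any array by either of its 2 probes (A_51_P458778 and A_55_P2035424). Values ran from 6.41 to 7.85 over both lines, and no fold is given.

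The rest of the pathway was read from lists of its other genes, 65 of which had 91 probe readings outside the middle. Of these readings 2 were called lower and 1 higher in 1G11-SOD3, against 1.20% called lower and 0.660% called higher over all readings outside the middle. Neither arachidonic acid release and re-esterification (0 of 22 genes called, 32 readings, median difference -0.15) nor the relays of prostaglandin receptor signals such as adenylyl cyclases, CREB family and NR4A factors (0 of 14 genes, 23 readings, median 0.02) held a called reading. The other prostanoid receptors (0 of 6 genes, 7 readings, median 0.20) held none either, and there only *Ptgfrn*, which encodes a regulator of the prostaglandin F receptor, was well above background on all 6 arrays.

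*Cbr1*, a carbonyl reductase that can turn prostaglandin E2 into prostaglandin F2α, fell in 1G11-SOD3, the only one of 9 genes in its list of further synthases and reductases to be called outside the middle. It read 12.22, 12.02 and 12.94 in 1G11-mock and 10.71, 10.60 and 11.55 in 1G11-SOD3, with no overlap. The difference was -1.44 ± 0.32 (SE; adjusted p = 0.0352 by limma), and after the position adjustment it was -1.07 (adjusted p = 0.122), or 0.0265 as the adjusted p with the replicate block added. The processed signal gave -0.92 (adjusted p = 0.124). In the same list *Akr1b8*, an aldo-keto reductase, was called higher by its single spot in the middle (2.18, adjusted p = 0.0463), where it gave 0.80 after the position adjustment (adjusted p = 0.272), and its 9 copies outside the middle gave 0.46 (adjusted p = 0.453).

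*Slco2a1*, the prostaglandin transporter that carries prostaglandins into cells, also fell, the only one of 3 genes in the list of carriers to be called. It read 15.84, 15.90 and 15.83 in 1G11-mock and 14.92, 14.93 and 14.22 in 1G11-SOD3. The 1G11-mock arrays lay within 0.1 of each other and all 1G11-SOD3 arrays lay below them, with a difference of -1.17 ± 0.25 (SE; adjusted p = 0.0294 by limma). After the position adjustment the difference was -0.68 (adjusted p = 0.134), and with the processed signal it was -0.27 (adjusted p = 0.634). *Abcc4*, an exporter of prostaglandins, read 12.25, 12.24 and 12.14 against 10.45, 11.71 and 11.63, without overlap, and its difference of -0.95 did not pass the test (adjusted p = 0.174 by limma).

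*Ephx2*, a soluble epoxide hydrolase, was the only one of 11 genes of the lipoxygenase and leukotriene list to be called. It is itself neither a lipoxygenase nor a leukotriene enzyme. It read 7.61, 7.10 and 7.91 in 1G11-mock, with 0 of 3 arrays well above background, and 8.98, 8.38 and 8.76 in 1G11-SOD3, with 3 of 3. That makes it at least 1.545-fold higher in 1G11-SOD3, a bound that was not tested. The fitted difference of 1.17 had an adjusted p of 0.0427 by limma. *Ptger1*, the EP1 receptor for prostaglandin E2, is named after its values were seen. Like *Ptger4*, it had 0 of 3 1G11-mock arrays well above background (8.22, 7.79 and 7.18) and 3 of 3 from 1G11-SOD3 (9.21, 9.12 and 8.56), at least 1.75-fold higher. Its fitted difference of 1.23 had an adjusted p of 0.0510 by limma and of 0.0115 with the replicate block. No array was well above background for *Ptger2*, *Ptger3*, *Ptgdr* and *Tbxa2r*, nor for *Ptgir*, *Ptgfr* and *Ptgdr2*, whose probes lie in the middle. The plot of the pathway lists shows most readings within 2-fold. Beyond it lie the called readings and also *Ptgs2* and *Ptger1*, which were not called, with *Ptgs2* the furthest from 0.

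**Figure D5:**
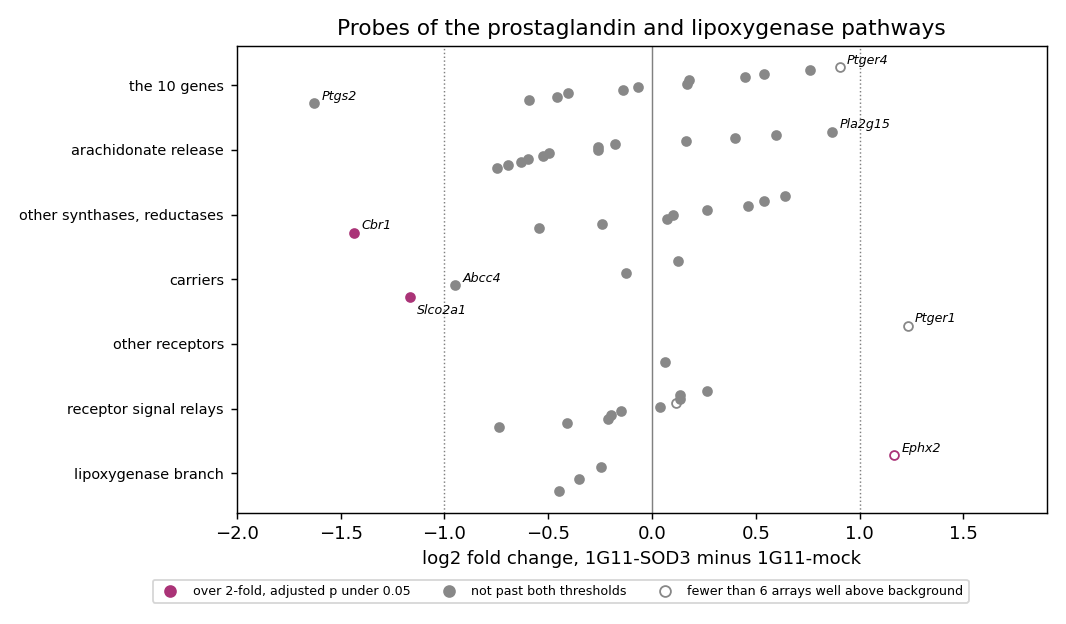
Log2 fold change (horizontal, 1G11-SOD3 minus 1G11-mock) of each probe reading outside the middle that was well above background on all arrays of at least 1 line, by pathway list (vertical; height within a list only spreads the points). Filled points were well above background on all 6 arrays, colored points (*Cbr1*, *Slco2a1* and *Ephx2*) passed the threshold, and dotted lines mark 2-fold.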

How the data were processed

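RNA of 3 1G11-mock and 3 1G11-SOD3 cultures was read on single-color arrays. The authors deposited the scanner output, with the raw mean pixel intensity and local background intensity of each spot, and also log2 values made with normexp correction (offset of 50) and quantile normalization, with a median of 7.52 per array. A recomputation from the scanner files came within 0.005 of those values, which served as an alternative. That match does not hold for the mean intensities used here, since the deposited values gave differences near those from median pixel intensities. For *Ptges* A_55_P1974193 the difference was 0.707 with the deposited values, 0.706 with median pixel intensities and 0.761 here. The data here are the mean intensities processed in the same way, without control spots and outlier-marked spots. Spots of a probe were averaged outside the middle and in it. The lines were compared with limma 3.58.1 in R 4.3.3 with empirical Bayes variances, and surfaces were fitted with mgcv 1.9.3 (basis size of 200). Tables were read with pandas 2.3.3 and numpy 2.4.6 in Python 3.11.15, and figures drawn with matplotlib 3.10.9. On simulated data over 55961 readings, 200 of 200 probes changed by 2 (log2) were found and 11 unchanged ones were called.

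The members, the lists and the alternatives were chosen with earlier results of these data known. Every probe of the 10 genes is reported, as is every called gene of 6 further pathway lists. No gene of similar pattern is named, since the rule took them only for called members. Endothelial, epithelial, fibroblast or mural and leukocyte markers were checked.

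Replicate numbers come from the labels. Deviations from the line means correlated between same-numbered arrays at 0.17, 0.10 and 0.16 over 16335 readings well above background on all arrays, all above 0.1, and at 0.17, 0.23 and 0.09 over all 55802 readings, where the third falls short. In both, each array correlated best with its own number, and the numbers were taken as pairing the samples. The reported fit leaves this pairing out, and the fit with the replicate block is given as an alternative.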

Additional observations from a re-analysis of the deposited data

How the results depend on the processing

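None of the 15 readings of the 10 genes outside the middle was called as reported. The count was 1 (*Ptgs2*) with the replicate block, with 75th percentile scaling and with position adjustment plus replicate block, and 4 (*Ptgs2*, *Ptger4* and both *Hpgd* probes, which are at background) with the processed signal, and the replicate block changed no other call among them. Position adjustment with the replicate block was chosen after seeing the data. Over all readings, 1697 were called (1101 higher, 596 lower), against 1093 without background correction, 11244 with the processed signal (1235 higher, 10009 lower), 2596 with 75th percentile scaling, 2402 after position adjustment (667 higher, 1735 lower), 768 with the middle left out (412 higher, 356 lower), 3185 with position adjustment plus replicate block (784 higher, 2401 lower), and 800 to 1855 with 1 array left out. The setting with the middle left out holds only the 49526 readings outside it, of which the reported fit called 327 higher and 592 lower. *Ptgs2*, *Pla2g4a*, *Ptgs1* and *Ptger4* kept their direction under all settings run. Some differences changed sign as follows, and the cause was not tested. Probes that give no fold are left out. Position adjustment, with or without the replicate block, gave -0.085 for *Ptges* A_55_P1974193, 0.0066 for *Ptgis* A_55_P2154027 and 0.077 for *Ptges3* A_55_P1994355. The processed signal gave 0.38 for *Ptgis* A_55_P2154027 and 0.28 and 0.27 for *Ptges3* A_55_P1994355 and A_55_P2018542. Scaling to the 75th percentile gave 0.094 and 0.028 for the same *Ptges3* probes. *Ptges3* A_55_P1994355 gave 0.048 with the middle left out. With 1 array left out, ranges crossed 0 for *Ptgds* (-0.92 to 0.039), *Ptges2* (-0.037 to 0.33) and *Ptges3* A_55_P1994355 (-0.37 to 0.37). *Cbr1* was no longer called under 12 of 22 settings and *Slco2a1* under 12 of 22, with their direction kept, and *Ephx2* under 8 of 22. The number of arrays and, for *Ptger4*, *Ephx2*, *Ptger1*, *Hpgd* and 1 probe each of *Ptges* and *Ptgis*, the signal over background limit these values.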
